A study of Mus musculus with 12 samples.

Results

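The genes of cholesterol and fatty acid synthesis that the SREBP transcription factors control were followed step by step in cultured mouse peritoneal macrophages. The set held 32 genes, given as a list of symbols, of the 20887 genes that the array probes could be named to. It comprised 18 enzymes that carry acetyl units to cholesterol, 6 genes of SREBP regulation and sterol transport, and 8 enzymes that make, lengthen and desaturate fatty acids. All 32 had a probe, and all 32 passed the filter on dim probes, which asks for a signal well above background throughout 1 or more of the groups of 4 arrays. The rule uses symbols and no measured value.

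SREBP proteins are made as precursors held in the membrane of the endoplasmic reticulum. When sterols are scarce, the escort protein SCAP carries them to the Golgi, where they are cleaved, and the released part enters the nucleus and turns on the genes of sterol and fatty acid synthesis. When sterols are plentiful, INSIG proteins hold SCAP back, so the enzymes of the pathway tend to be transcribed together. In macrophages the pathway is known to be remodelled by interferon and by signals from Toll-like receptors.

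The cells came from C57BL/6 mice, were labelled wild type and were studied in 3 groups of 4 arrays. Adherent cells were washed 2 h after plating, kept overnight in serum-free medium, and then given vehicle (group control) or lipopolysaccharide (LPS, a bacterial wall component, 100 ng/ml) with interferon gamma (IFNg, 20 ng/ml), alone (group LPS_IFNg) or with 50 µM emodin, an anthraquinone found in rhubarb root (group LPS_IFNg_emodin). RNA was taken after 20 h and 200 ng of each sample was labelled for a 1-colour Agilent array. Control cells went through the same serum-free step as the treated cells. Control samples were labelled as 8 weeks old, with both sexes, and treated samples as 9 weeks old and female. No label ties a sample to an animal, so p-values here reflect only sample-to-sample spread, which may be technical. RNA from a dish also cannot tell fewer cells of a type from less RNA per cell.

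Levels are log2 signals relative to the 75th percentile of the array, so that 0 is that percentile. They can be compared between arrays for 1 probe but not between probes, and a change of 1 is a doubling. The 75th percentile lay at 745.5 to 969.3 in control, 764.1 to 950.8 in LPS_IFNg and 435.1 to 546.6 in LPS_IFNg_emodin, and 45.43% to 50.77% of probes on each array were well above background. All 8 treated arrays shared a slide and the 4 control arrays lay on another, so treatment, slide and age cannot be told apart in a comparison with control. On the treated slide each group filled 1 column, so array column and emodin cannot be told apart either. Levels of Xist and Eif2s3y went against the sex label in 4 libraries: control replicates 3 and 4, labelled male, had Xist at -0.05 and 0.18, and replicate 3 of both treated groups, labelled female, had Eif2s3y at 0.76 and 1.66. Without replicate 3 of both treated groups, 29 members fell and 1 rose under LPS and IFNg, and 24 fell and 5 rose with emodin, the counts found with all arrays. The activation genes moved as the labels say: the nitric oxide synthase Nos2 rose by 11.46 ± 0.17 (log2, SE, adjusted p = 3.93e-13) and Il1b, which encodes interleukin 1 beta, by 8.54 ± 0.43 (adjusted p = 5.82e-09). The interferon-induced chemokine Cxcl9 was at least 10506-fold higher, since its probe was not well above background in control (adjusted p = 1.07e-12). All adjusted p-values come from limma over the 13168 genes tested, and a gene was called at 0.05, two-sided.

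The tissue label names peritoneal macrophages, while the series' design text calls the samples PMN. All 7 macrophage markers with a probe were above background, with a summed level relative to the 75th percentile of 541 to 556.7 in control, 370.6 to 426.9 in LPS_IFNg and 455.5 to 545.1 in LPS_IFNg_emodin. Such sums follow the brightest probes, here Lyz2 and Csf1r, and sums of different lists cannot be compared. Of these 7 markers, 2 rose and 4 fell with stimulation, beside 33.6% and 35.5% of all genes tested. Under emodin 2 rose and 4 fell, beside 36.6% and 35.6% of all genes tested. The 7 neutrophil markers with a probe summed to 22.26 to 33.5, 21.27 to 25.79 and 25.88 to 32.34 in the same order, and Ly6g, a defining neutrophil gene, had no probe. None of 5 adipocyte markers, Adipoq and Plin1 among them, was well above background on any array. Lymphocyte markers (7 of 7 detected) summed to 11.36 to 12.18, 7.674 to 8.929 and 11.88 to 12.56, and mast cell markers (5 of 5) stayed between 0.427 and 1.43 in every group.

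The sequence around the start site was read for members that moved together and for those that did not. RefSeq promoters of assembly GRCm38.p6, reaching from 250 bases before the start to 50 after it, were found for 25 of the 32 members (33 promoters, since some genes have several). Motifs were searched as exact letters on both strands: TCACNCCAC and a longer exact form for sterol regulatory elements, CCAAT for NF-Y, GGGCGG for SP1 and CACGTG for an E-box. The promoters below are those of members whose changes the results turn on: Hmgcs1, which fell with stimulation and not further with emodin, Idi1 and Hsd17b7, which fell at both steps, and Insig1 and Srebf2, which fell and then rose on the probes used. Capitals mark matches on either strand.
Hmgcs1, chr13:119690101-119690400, plus strand: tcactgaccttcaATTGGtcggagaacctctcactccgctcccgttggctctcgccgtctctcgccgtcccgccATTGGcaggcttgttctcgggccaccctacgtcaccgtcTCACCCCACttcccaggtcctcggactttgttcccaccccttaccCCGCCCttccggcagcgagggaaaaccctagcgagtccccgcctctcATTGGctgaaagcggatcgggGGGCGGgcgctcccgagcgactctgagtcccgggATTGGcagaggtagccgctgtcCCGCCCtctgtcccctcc
Idi1, chr13:8885356-8885655, plus strand: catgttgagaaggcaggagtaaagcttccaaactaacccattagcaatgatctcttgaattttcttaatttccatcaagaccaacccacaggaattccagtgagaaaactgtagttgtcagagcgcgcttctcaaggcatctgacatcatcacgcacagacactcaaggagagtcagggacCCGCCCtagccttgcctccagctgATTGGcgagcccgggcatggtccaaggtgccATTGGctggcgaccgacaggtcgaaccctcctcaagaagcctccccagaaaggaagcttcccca
Hsd17b7, chr1:169969156-169969455, minus strand: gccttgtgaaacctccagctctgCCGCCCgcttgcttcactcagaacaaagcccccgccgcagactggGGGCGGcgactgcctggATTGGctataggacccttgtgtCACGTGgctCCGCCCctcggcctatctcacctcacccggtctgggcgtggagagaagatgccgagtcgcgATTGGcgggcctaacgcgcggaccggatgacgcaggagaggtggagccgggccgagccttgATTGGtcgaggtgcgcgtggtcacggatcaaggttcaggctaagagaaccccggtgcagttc
Insig1, chr5:28071162-28071461, plus strand: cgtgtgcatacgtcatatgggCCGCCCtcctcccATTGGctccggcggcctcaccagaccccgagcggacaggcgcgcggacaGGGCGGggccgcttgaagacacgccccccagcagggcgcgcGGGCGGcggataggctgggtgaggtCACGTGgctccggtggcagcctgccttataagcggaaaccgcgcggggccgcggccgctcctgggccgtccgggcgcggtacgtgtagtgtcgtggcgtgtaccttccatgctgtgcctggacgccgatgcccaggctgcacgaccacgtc
Srebf2, chr15:82147019-82147318, plus strand: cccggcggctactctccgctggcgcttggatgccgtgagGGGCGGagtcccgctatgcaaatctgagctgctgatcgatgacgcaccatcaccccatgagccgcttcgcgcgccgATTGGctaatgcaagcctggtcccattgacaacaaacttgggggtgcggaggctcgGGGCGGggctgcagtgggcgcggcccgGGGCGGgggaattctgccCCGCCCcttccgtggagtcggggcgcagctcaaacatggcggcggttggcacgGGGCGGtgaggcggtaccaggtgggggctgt
In these windows TCACNCCAC appeared in 1 member, Hmgcs1 (1.24% of all 32851 promoters hold it), and the longer form in none (0.0913% of all promoters). CCAAT was present in 21 of 33 member promoters (63.6%, against 37.4% of all promoters) and GGGCGG in 25 of 33 (75.8%, against 35.7%). CACGTG was present in 6 of 33 (18.2%, against 7.15%), from Dhcr7, Hsd17b7, Insig1, Sc5d and Scap. Any match to the longer form would also match TCACNCCAC, and a match describes letters, not binding. The printed windows of Idi1, which fell with emodin, and of Insig1, which rose, both held CCAAT and GGGCGG. Scap, which also rose, held GGGCGG and CACGTG but no CCAAT.

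The first comparison asked what stimulation with LPS and IFNg did to the pathway. Nearly the whole route was lower in stimulated macrophages: 29 of 32 members fell, 1 rose and 2 were not called, where 69.1% of all genes tested were called in either direction, 35.5% fell and 33.6% rose. The median change of the members was -1.68 on the log2 scale, beside -0.04 for all genes tested. Of the members, 23 fell by a factor of 2 or more, against 12.2% of all genes, and the groups did not overlap for 30, against 64.4% of all genes.

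The cholesterol route fell at each of its 18 steps, with a median of -2.11. Its entry is Acat2, the cytosolic thiolase that joins acetyl-CoA units, followed by Hmgcs1, which makes HMG-CoA. Hmgcs1 had log2 levels of 6.18, 6.03, 5.75 and 5.84 in control replicates 1 to 4 and of 3.38, 3.98, 3.45 and 4.03 in LPS_IFNg. Every stimulated array lay well below every control array, a fall by 2.24 ± 0.19 (SE, n = 4 per group, adjusted p = 6.23e-07), or 4.72-fold. Acat2 fell by 2.18 ± 0.11.

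The mevalonate kinases and the enzymes that build isoprenoids fell by similar amounts. Mvk phosphorylates mevalonate, Pmvk adds the next phosphate and Mvd decarboxylates the product. Changes were -1.99 ± 0.09 for Mvk, -1.72 ± 0.12 for Pmvk and -1.68 ± 0.10 for Mvd. Idi1, which interconverts the C5 isoprenoid building blocks, was at 4.90, 4.79, 4.48 and 4.60 in control and at 1.80, 1.71, 1.89 and 1.87 in LPS_IFNg. The groups were far apart and the fall was 2.88 ± 0.09 on the log2 scale (7.35-fold, adjusted p = 1.56e-10). Fdps, which makes farnesyl diphosphate, had a change of -2.27 ± 0.09. Fdft1 and Sqle commit farnesyl diphosphate to sterols through squalene and its epoxide, and had changes of -2.16 ± 0.11 and -2.09 ± 0.08. The other kept probe of Fdft1 showed a smaller change of -0.72.

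Among the enzymes from lanosterol to cholesterol the sizes ranged widely. Dhcr7, which makes cholesterol in the last reduction of one branch, stood at 1.88, 1.33, 1.48 and 1.55 in control and at -1.49, -1.57, -1.89 and -1.54 in LPS_IFNg. No array of one group approached the other, and the change of -3.19 ± 0.15 (9.11-fold lower, adjusted p = 3.11e-09) was the largest of the 32 members in this comparison. Ebp, the sterol isomerase, had the smallest change of the 18 steps: 5.89, 6.01, 5.96 and 5.81 in control against 5.57, 5.47, 5.44 and 5.42 in LPS_IFNg. Its groups also did not overlap, with a change of -0.44 ± 0.07 (adjusted p = 0.000103). Between these lay Lss, which closes the ring to lanosterol (-1.24 ± 0.10), Cyp51, the lanosterol demethylase (-2.13 ± 0.15), and Tm7sf2, a sterol reductase (-1.34 ± 0.11). The enzymes that remove the methyl groups at C4 fell as well, Msmo1 by 1.68 ± 0.12, Nsdhl by 1.62 ± 0.14 and Hsd17b7 by 2.62 ± 0.20. Sc5d, the desaturase before Dhcr7, fell by 2.48 ± 0.10.

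**Figure D1:**
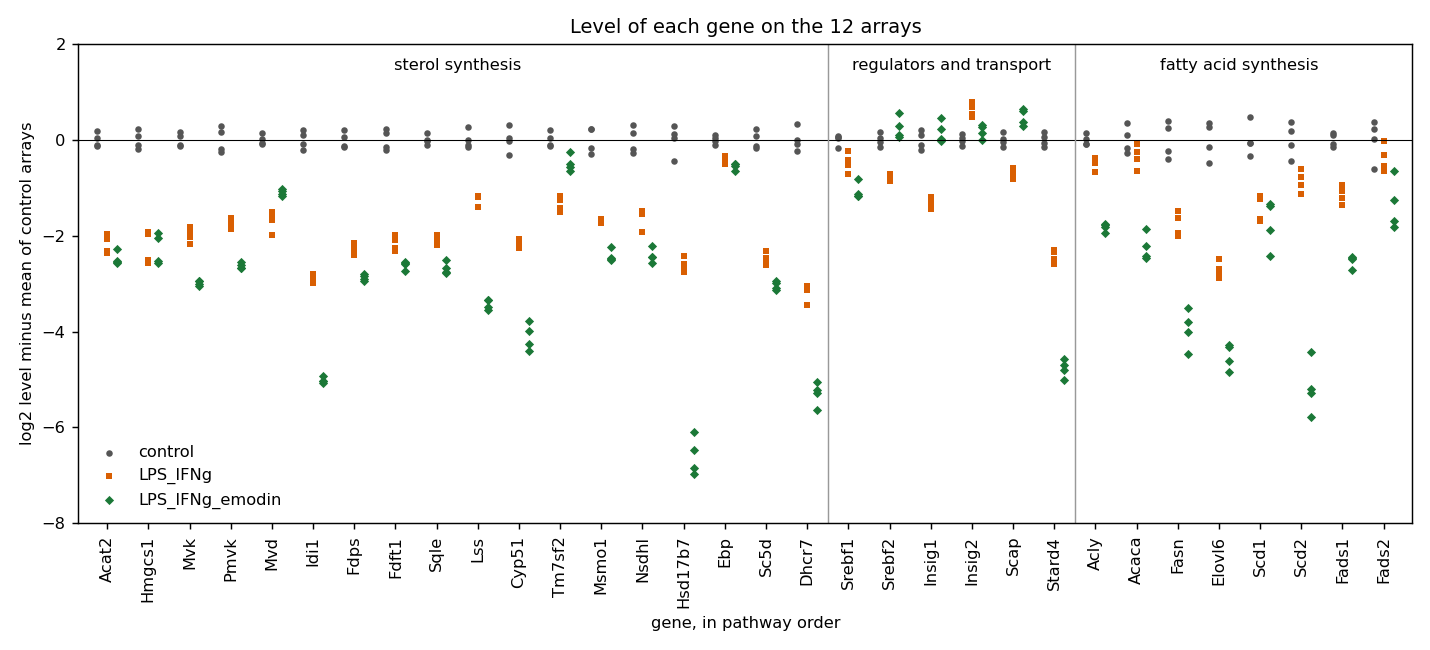
Log2 level of each of the 32 members on every array minus the mean of its control arrays (vertical axis), in pathway order along the horizontal axis; each point is 1 array, with 4 per group, and vertical lines part sterol synthesis, regulators and transport, and fatty acid synthesis. The stimulated arrays lie below control for most members, and the emodin arrays lie lowest for Hsd17b7, Dhcr7, Scd2 and Idi1 but back near control for Insig1 and Srebf2 on the probes used.

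Of the 6 regulators and transport genes, 5 fell and 1 rose, with a median of -0.74. Insig1, a sterol-responsive retention protein that is itself an SREBP target, was at 1.14, 1.04, 0.73 and 0.82 in control and at -0.50, -0.27, -0.39 and -0.52 in LPS_IFNg. All stimulated arrays were lower, by 1.35 ± 0.12 (adjusted p = 1.13e-06). Insig2, its relative with the same retention function, was the single member that rose: 2.77, 2.86, 2.62 and 2.71 in control against 3.43, 3.22, 3.52 and 3.27 in LPS_IFNg. The rise was 0.62 ± 0.09 (adjusted p = 8.68e-05), and 0.22 on its other kept probe. Srebf1 and Srebf2 encode the SREBP factors, weighted to fatty acid and to sterol genes respectively, and had changes of -0.47 ± 0.12 and -0.80 ± 0.11. Scap had a change of -0.68 ± 0.10. Stard4, a cytosolic carrier of cholesterol, had the largest change of these 6 genes, -2.43 ± 0.11, or -1.50 on its other kept probe.

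The fatty acid genes were more mixed, with 6 falling, 2 not called and a median of -1.0. Acly, which supplies cytosolic acetyl-CoA from citrate, fell by 0.51 ± 0.08. Acaca, the carboxylase that makes malonyl-CoA, was at 3.46, 3.08, 3.19 and 3.70 in control and at 2.70, 3.27, 2.96 and 3.11 in LPS_IFNg. The groups overlapped and the change of -0.35 ± 0.17 was not called (adjusted p = 0.0917, 95% interval -0.73 to 0.03). It was called under quantile scaling (-0.49, adjusted p = 0.0312) and 4 other settings that used this probe, alone or averaged. The other kept probe of Acaca was well above background on none of the LPS_IFNg arrays and is not read here. Fasn, the fatty acid synthase, fell by 1.77 ± 0.22 (by 1.0 with another background correction), and Elovl6, which lengthens C16 chains, by 2.73 ± 0.19.

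The desaturases differed among themselves. Scd1 and Scd2 place the double bond of monounsaturated fatty acids, and fell by 1.44 ± 0.25 and 0.86 ± 0.26. Fads1, the delta-5 desaturase of polyunsaturated chains, fell by 1.15 ± 0.11. Fads2, the delta-6 enzyme, was dim: its probe was well above background on 4 control arrays, 2 LPS_IFNg arrays and 1 LPS_IFNg_emodin array. Its change of -0.39 ± 0.27 was not called (adjusted p = 0.222, 95% interval -0.98 to 0.21).

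The second comparison asked what emodin changed in stimulated macrophages. Most of the route went down again, while 3 regulators and 2 sterol enzymes went up on the probes used: 24 of 32 members fell, 5 rose and 3 were not called, where 72.2% of all genes tested were called in either direction, 35.6% fell and 36.6% rose. Of these, Srebf2 among the risers and Fdft1 among those that fell moved the other way on another probe, and the fall of Acat2 was lost under several settings, as given with each gene. The median change was -0.77 for the members and 0.02 for all genes tested. The fall was by a factor of 2 or more for 13 members, against 16.0% of all genes, and 27 members had groups that did not overlap, against 67.7% of all genes. Within the 4 replicate numbers, 24 members were lower with emodin in 4 of 4, 5 were higher in 4 of 4 and 3 were mixed. On the probes used, 21 genes fell at both steps, Fdft1 and Acat2 with the limits just named, and Mvk, Idi1, Dhcr7, Stard4, Srebf1 and Scd2 among the others. The share of all genes that moved alike within the replicate numbers, or that fell at both steps, was not counted. These counts therefore describe the members only.

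The counts depend on the scaling, since the emodin arrays were dimmer. Before scaling, the median gene of the emodin arrays differed by -0.81 ± 0.07 (log2, SE) from that of the LPS_IFNg arrays, and the groups did not overlap (exact permutation p = 0.0286, the smallest that 4 against 4 can give; paired by replicate number, 0.125, the smallest that 4 pairs can give). Spike-in RNAs, added in a fixed mix, differed by -0.09 ± 0.06 (exact permutation p = 0.2). Scaling to the spike-ins shifts the change of every gene by the same amount. It moved the median of all genes to -0.67, with 1214 genes up and 8604 down in place of 4814 and 4693. Under that scaling 27 members fell and 3 rose: Insig1 by 0.82, Scap by 0.46 (adjusted p = 0.0198) and Srebf2 by 0.35 (adjusted p = 0.0455). The rises of Mvd and Tm7sf2 given next were therefore changes relative to the other genes of the array. Marker genes of mesothelial cells and fibroblasts also moved with emodin: all 9 were detected on some array, and their summed level was 16.63 to 73.22 in control, 68.76 to 132 in LPS_IFNg and 10.77 to 35 in LPS_IFNg_emodin. This sum follows its brightest probes, Dcn and Col1a2. Of the 8 that were tested, 3 rose and 3 fell with stimulation, beside 33.6% and 35.5% of all genes. Under emodin 4 of the 8 fell and none rose, beside 35.6% and 36.6% of all genes. The part of these cells in the changes of the members was not tested.

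**Figure D2:**
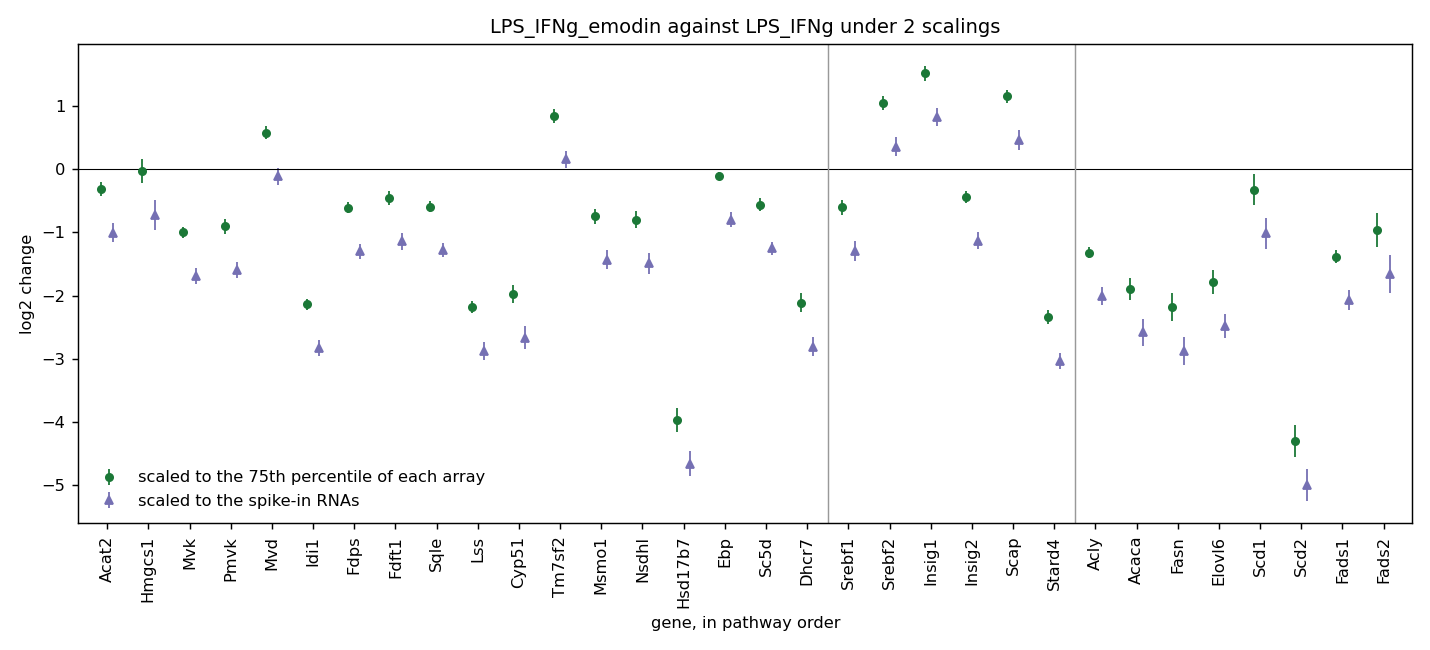
Log2 change of each member with emodin (LPS_IFNg_emodin against LPS_IFNg, 4 arrays each, vertical axis) with its standard error, scaled to the 75th percentile of each array (circles) or to the spike-in RNAs (triangles), in pathway order along the horizontal axis. Spike-in scaling lowers every gene by the same amount, so lower values for every member follow from the scaling. That shift leaves Insig1, Scap and Srebf2 above 0 and called, Tm7sf2 above 0 but not called, and Mvd below 0.

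At the top of the cholesterol route the effect of emodin was small. Hmgcs1 had 3.39, 4.00, 3.42 and 3.91 in the emodin arrays, beside 3.38, 3.98, 3.45 and 4.03 without emodin. The values matched replicate by replicate and the change was -0.03 ± 0.19 (95% interval -0.45 to 0.38, adjusted p = 0.891), though -0.72 under spike-in scaling (adjusted p = 0.0139). Acat2 was at -2.39, -1.99, -2.35 and -2.10 without emodin and at -2.32, -2.59, -2.60 and -2.57 with it. Replicate 1 went against the others, and the fall by 0.31 ± 0.11 (adjusted p = 0.0247) was lost under several settings. With the replicate number as a block on these 8 arrays the adjusted p was 0.0674. Without any 1 of 5 single arrays (emodin replicate 2, 3 or 4, or LPS_IFNg replicate 2 or 4) it was 0.0544 to 0.0787. Normexp, another background correction, gave a change of 0.065. As run here, normexp adds an offset of 50 to every spot. That offset is a larger share of a dim signal on the dimmer emodin arrays, so falls of dim probes shrink in part by construction.

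Downstream, the size of the fall differed between steps. Mvk and Pmvk fell by 1.00 ± 0.09 and 0.91 ± 0.12, and the changes of Fdps, Sqle, Msmo1, Nsdhl and Sc5d lay between -0.80 and -0.56. Fdft1 fell by 0.45 ± 0.11 on the probe used and rose by 0.55 on its other kept probe (adjusted p = 0.00268), so no direction can be given for this gene. Larger falls, from Cyp51 at -1.98 upwards in size, were seen for Idi1, Lss, Cyp51, Dhcr7 and Hsd17b7. Idi1 went from 1.80, 1.71, 1.89 and 1.87 to -0.35, -0.23, -0.34 and -0.38, a fall by 2.14 ± 0.09 (4.41-fold, adjusted p = 3.69e-09). Lss went from 0.65, 0.85, 0.86 and 0.85 to -1.51, -1.29, -1.44 and -1.29, a fall by 2.19 ± 0.10 (adjusted p = 4.82e-09). In both genes the arrays of each group lay close together and the groups far apart. Cyp51 fell by 1.98 ± 0.15, and Dhcr7, from -1.89 to -1.49 across the arrays without emodin, went to -4.08 to -3.49, a fall by 2.12 ± 0.15, or by 1.10 with normexp. The Dhcr7 probe was well above background on 3 of 4 emodin arrays.

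Hsd17b7, the 3-ketosteroid reductase of sterol demethylation, had no signal well above background with emodin. Its levels were -1.90, -2.07, -2.01 and -1.72 in LPS_IFNg and -6.14, -6.27, -5.39 and -5.78 with emodin, where none of the 4 arrays had the probe well above background. The emodin level is therefore only a bound, and Hsd17b7 was at least 5.0-fold lower (fitted change -3.97 ± 0.20, adjusted p = 1.04e-08). Its other kept probe was at -2.39 to -2.0 without emodin and at -6.20 to -5.34 with it. With normexp the change was -0.97.

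Against this fall, Mvd and Tm7sf2 went up relative to the other genes. Mvd was at 2.33, 2.15, 1.85 and 2.28 without emodin and at 2.67, 2.80, 2.76 and 2.71 with it. No arrays overlapped, and the rise was 0.58 ± 0.10 (adjusted p = 0.000301), but the change was -0.11 under spike-in scaling (adjusted p = 0.478). Tm7sf2 was at 1.41, 1.09, 1.16 and 1.34 without emodin and at 1.95, 2.09, 2.33 and 2.02 with it, a rise by 0.85 ± 0.11 (adjusted p = 2.41e-05) that shrank to 0.16 under spike-in scaling (adjusted p = 0.288). Both enzymes remained below their control arrays. Ebp had a change of -0.11 ± 0.07 (95% interval -0.25 to 0.04, adjusted p = 0.18), which was called under quantile scaling (-0.24) and 3 other settings.

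The regulators split into opposite directions, with a median of 0.30 over 6 genes. Insig1 went from -0.50, -0.27, -0.39 and -0.52 to 0.95, 1.15, 1.38 and 0.91. Each emodin array was far above each array without it, a rise by 1.52 ± 0.12 (adjusted p = 4.56e-07). Insig2 moved the other way, from 3.43, 3.22, 3.52 and 3.27 to 3.05, 2.89, 2.74 and 3.00, a fall by 0.44 ± 0.09 (adjusted p = 0.0011). The emodin arrays of both genes lay near their control arrays. Scap, the escort protein, went from 3.14, 3.35, 3.25 and 3.38 to 4.25, 4.61, 4.56 and 4.32, a rise by 1.15 ± 0.10 (adjusted p = 9.87e-07).

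Of the factors themselves, Srebf1 fell and Srebf2 depended on the probe. Srebf1 had -1.70, -1.58, -1.39 and -1.88 without emodin and -2.30, -1.99, -2.33 and -2.34 with it. The groups were separate, though close at replicate 2 of the emodin arrays, and the change was -0.60 ± 0.12 (adjusted p = 0.000562), or -0.25 with normexp. On the probe used, Srebf2 had 4.61, 4.52, 4.48 and 4.51 without emodin and 5.61, 5.38, 5.44 and 5.88 with it, a rise by 1.05 ± 0.11 (adjusted p = 3.58e-06). On its other kept probe the levels were -0.07, 0.16, 0.10 and 0.11 without emodin and -0.12, -0.04, -0.39 and -0.37 with it, a fall by 0.31 (adjusted p = 0.0215), so the direction of Srebf2 with emodin was not settled. Stard4 showed the largest fall of the regulators and transport genes, from 0.38, 0.08, 0.34 and 0.19 to -2.01, -1.90, -2.12 and -2.34. No arrays overlapped, and the fall by 2.34 ± 0.11 (adjusted p = 6.93e-09) was 1.30 on its other kept probe.

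**Figure D3:**
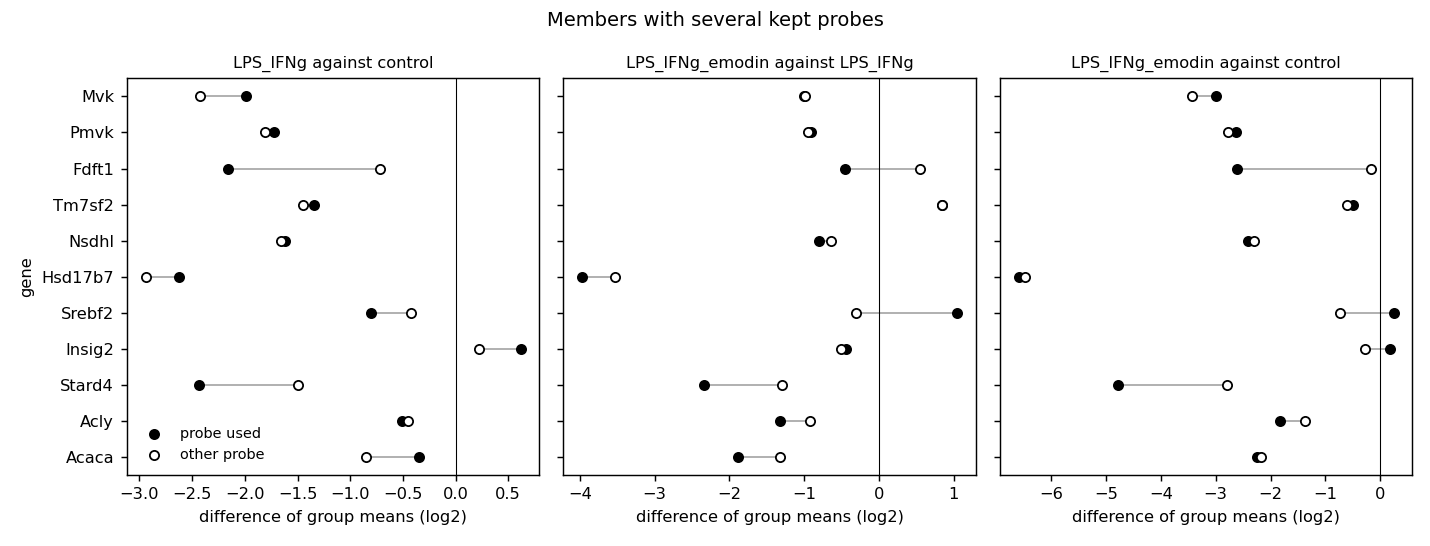
Log2 change for the probe used and for the other kept probes of the 11 members with more than 1, in each of the 3 comparisons; each point is the difference between means of 4 arrays, and the other probes of Acaca and Hsd17b7 were not well above background with emodin, that of Acaca not in LPS_IFNg either. The probes of Srebf2 and of Fdft1 lie on opposite sides of 0 for emodin against LPS_IFNg, and those of Insig2 do so for LPS_IFNg_emodin against control.

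Fatty acid genes had the lowest median with emodin, -1.58, and 7 of 8 fell while 1 was not called. Acly had 4.91, 5.11, 5.19 and 5.09 without emodin and 3.63, 3.83, 3.79 and 3.75 with it, a fall by 1.32 ± 0.08 (adjusted p = 5.58e-08). Acaca went from 2.70, 3.27, 2.96 and 3.11 to 0.93, 1.50, 1.14 and 0.90, a fall by 1.89 ± 0.17 (adjusted p = 1.4e-06). Both genes act before the synthase, and neither had overlapping arrays. Fasn was well above background on none of the emodin arrays and was at least 1.57-fold lower (fitted change -2.19 ± 0.22, adjusted p = 3.31e-06), while normexp gave 0.015. Elovl6 had -1.52, -1.72, -1.66 and -1.33 without emodin and -3.44, -3.15, -3.11 and -3.69 with it, a fall by 1.79 ± 0.19 (adjusted p = 4.64e-06), or by 0.85 with normexp.

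Among members measured above background in both groups, the largest change with emodin was in a desaturase. Scd2 had 4.61, 5.13, 4.97 and 4.81 without emodin and 0.47, 1.31, 0.54 and -0.04 with it. The emodin arrays lay far below the others, and the fall was 4.31 ± 0.26 (19.8-fold, adjusted p = 3.81e-08). Scd1 had -0.55, -0.96, -1.0 and -0.48 without emodin and -1.74, -0.69, -0.65 and -1.19 with it. These arrays overlapped, with a change of -0.32 ± 0.25 (95% interval -0.87 to 0.22, adjusted p = 0.256), although spike-in scaling gave -1.02 (adjusted p = 0.00205). Fads1 fell by 1.38 ± 0.11. Fads2 fell by 0.96 ± 0.27 on a probe that was rarely well above background, and had 0.13 with normexp.

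The third comparison set emodin-treated stimulated cells against untreated control, and it shares its arrays with the other comparisons. Both treatments together left the pathway far below control: 28 of 32 members were lower, 1 was higher and 3 were not called, where 78.0% of all genes tested were called in either direction, 38.2% were lower and 39.8% were higher. The median was -2.51 for the members and 0.02 for all genes, and 26 members were lower by a factor of 2 or more, against 20.6% of all genes. The groups did not overlap for 29 members, against 72.6% of all genes.

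The 18 sterol enzymes were all lower, with a median of -2.65. Idi1 was 32.5-fold lower (log2 change -5.02 ± 0.09, adjusted p = 1.59e-12), Dhcr7 39.5-fold (-5.30 ± 0.15) and Cyp51 17.3-fold (-4.11 ± 0.15). The Dhcr7 value rests partly on dim signal, since its probe was well above background on 3 of 4 emodin arrays. Hsd17b7 was at least 30.7-fold lower (fitted change -6.59 ± 0.20, adjusted p = 6.76e-11), where normexp gave -3.24. Lss and Mvk had -3.43 ± 0.10 and -2.99 ± 0.09, and Acat2, Hmgcs1, Pmvk, Fdps, Sqle, Msmo1, Nsdhl and Sc5d lay between -3.04 and -2.27. The smallest differences were those of Mvd (-1.10 ± 0.10), Ebp (-0.55 ± 0.07) and Tm7sf2 (-0.49 ± 0.11). Fdft1 was at -2.61 ± 0.11, but at -0.17 on its other kept probe (adjusted p = 0.263).

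Among the regulators, Insig1 differed from control by 0.17 ± 0.12 (95% interval -0.10 to 0.43, adjusted p = 0.232). Scap was higher by 0.48 ± 0.10 (adjusted p = 0.00101), a call that quantile scaling ended (0.19, adjusted p = 0.142). Srebf2 differed by 0.24 ± 0.11 (adjusted p = 0.0561) on the probe used and by -0.73 on the other (adjusted p = 4.62e-05). Insig2 differed by 0.18 ± 0.09 (adjusted p = 0.0962) and by -0.28 on its other probe (adjusted p = 0.0124). Srebf1 had -1.07 ± 0.12 and Stard4 -4.77 ± 0.11, or -2.80 on the other Stard4 probe. The 8 fatty acid genes were all lower, with a median of -2.39. Scd2 was 36.0-fold lower (-5.17 ± 0.26, adjusted p = 3.24e-09) and Elovl6 22.8-fold (-4.51 ± 0.19, adjusted p = 8.3e-10). Fasn was at least 5.34-fold lower, where normexp gave a change of -0.99. Acly, Acaca, Scd1 and Fads1 had changes of -1.83 ± 0.08, -2.24 ± 0.17, -1.76 ± 0.25 and -2.53 ± 0.11. Fads2 was at -1.35 ± 0.27, or at 0.033 with normexp (adjusted p = 0.763).

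Related members were compared within each array, where the scaling drops out. For 5 pairs and 3 comparisons the per-array difference was tested by a two-sided exact permutation test, with p-values adjusted over the 15 tests. The smallest p that 4 arrays against 4 allow is 0.0286, which gave an adjusted p of 0.0476. The emodin and LPS_IFNg arrays are paired by replicate number, and a paired exact test of 4 pairs cannot go below 0.125. The calls with emodin below are those of the unpaired test, which leaves the pairing out. Insig1 relative to Insig2 fell by 1.97 ± 0.12 with stimulation and rose by 1.96 ± 0.20 with emodin (adjusted exact p = 0.0476 for both). Against control, the emodin arrays differed by -0.01 ± 0.18 (adjusted exact p = 0.971). Insig1 relative to Insig2 was higher with emodin in 4 of 4 pairs (paired exact p = 0.125). By the unpaired test these retention genes changed unequally at both steps.

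Scd1 relative to Scd2 rose by 3.99 ± 0.36 with emodin (adjusted exact p = 0.0476), and had -0.57 ± 0.25 with stimulation (adjusted exact p = 0.117). Srebf1 relative to Srebf2 fell by 1.65 ± 0.21 with emodin on the probes used (adjusted exact p = 0.0476), a value that rests on the Srebf2 probe chosen. With stimulation it was 0.33 ± 0.17 (adjusted exact p = 0.143). The pair of Fads1 and Fads2 is not read, since the Fads2 probe was well above background on 2 of 4 LPS_IFNg arrays and 1 of 4 emodin arrays. Acaca relative to Acly had 0.15 ± 0.15 with stimulation (adjusted exact p = 0.306) and fell by 0.57 ± 0.14 with emodin (adjusted exact p = 0.0476). By the unpaired test, the genes of a pair thus changed unequally in some comparisons and were not separated in others.

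**Figure D4:**
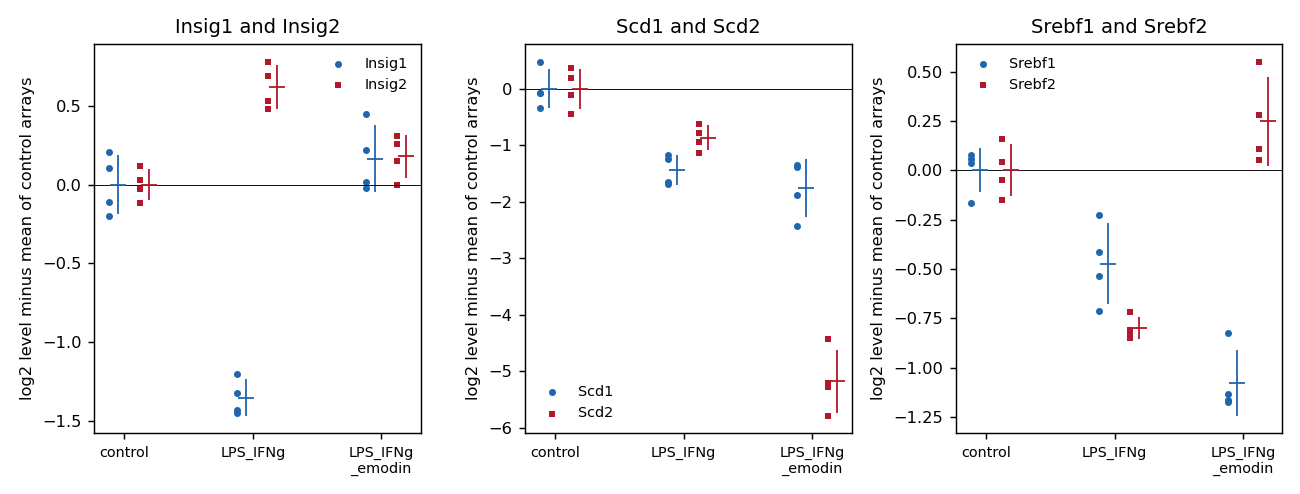
Log2 level minus the mean of the control arrays (vertical axis) for Insig1 and Insig2, Scd1 and Scd2, and Srebf1 and Srebf2 in the 3 groups; points are arrays (4 per group), and the horizontal and vertical lines beside them are mean and SD. Insig1 and Insig2 part under LPS_IFNg and meet near control with emodin, Scd2 falls far below Scd1 with emodin, and Srebf2 is shown for the probe used, whose rise its other probe does not share.

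Further genes of the same pathway were given by count. Of 16 listed, 15 were tested, and with stimulation 10 fell, 2 rose and 3 were not called (median -1.34). Of all genes tested, 35.5% fell and 33.6% rose. Lpin1, a phosphatidate phosphatase, fell by 2.77 ± 0.11. Acacb, the mitochondrial acetyl-CoA carboxylase, was at least 5.78-fold higher, since its probe was not well above background in control (adjusted p = 1.43e-05). Me1, the malic enzyme that supplies NADPH, rose by 2.32 ± 0.18 (adjusted p = 2.77e-07).

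With emodin, 10 of these 15 genes fell, 2 rose and 3 were not called (median -0.88), where 35.6% of all genes fell and 36.6% rose. Me1 fell by 3.84 ± 0.18, Lbr, a sterol reductase of the nuclear envelope, by 1.21 ± 0.11, and Elovl5, an elongase of polyunsaturated chains, by 1.20 ± 0.11. Against control, 12 were lower, 2 higher and 1 not called (median -1.81), where 38.2% of all genes were lower and 39.8% higher. Acacb was at least 7.11-fold higher, Elovl5 had -2.90 ± 0.11 and Aacs, which makes acetoacetyl-CoA, had -2.72 ± 0.10.

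Genes of sterol sensing, oxysterol synthesis, storage and efflux were counted likewise. Of 12, 4 rose, 6 fell and 2 were not called with stimulation (median -0.43). Of all genes tested, 33.6% rose and 35.5% fell, so the counts of this short list are not read as a trait of it. Ch25h makes 25-hydroxycholesterol, an oxysterol that binds INSIG and restrains SREBP processing. It was at -2.07, -2.85, -3.00 and -3.87 in control, at 4.06, 3.81, 3.90 and 4.09 in LPS_IFNg and at -0.61, -1.36, -2.19 and -0.84 with emodin. The changes were 6.92 ± 0.37 with stimulation (adjusted p = 1.14e-08) and -5.21 ± 0.37 with emodin (adjusted p = 1.77e-07), and the emodin arrays differed from control by 1.70 ± 0.37 (adjusted p = 0.00122), with emodin replicate 3 below control replicate 1. Cyp27a1, which makes 27-hydroxycholesterol, Soat1, which esterifies cholesterol, and Apoe, an acceptor of effluxed cholesterol, fell with stimulation by 1.92 ± 0.13, 1.41 ± 0.08 and 1.11 ± 0.10.

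With emodin, 7 of the 12 rose and 5 fell (median 0.37), where 36.6% of all genes rose and 35.6% fell. After Ch25h, the largest changes were those of the efflux pump Abca1 (-1.40 ± 0.18), Apoe (1.16 ± 0.10) and the sterol receptor Nr1h3 (1.14 ± 0.09). Against control, 4 were higher, 7 lower and 1 not called (median -0.49), where 39.8% of all genes were higher and 38.2% lower. The largest differences there were those of Ch25h, Cyp27a1 (-1.56 ± 0.13), the lysosomal sterol carrier Npc2 (1.46 ± 0.08) and Lpcat3, which remodels phospholipids (-1.36 ± 0.11).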

How the data were processed

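Expression was measured on 12 one-colour Agilent arrays, 4 in each of 3 groups taken from the sample labels. The deposited scanner files hold spot intensity with the background already corrected; the submitters' processing notes name version 10.7.3.1 of Agilent Feature Extraction. The table of processed log2 values that the authors deposited followed quantile-scaled signals centred on each probe's median, with column medians of -0.0314 to 0.0416; 3 control columns matched scanner files of other control replicates best, so it served as an alternative only.

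The processed intensity was divided by each array's 75th percentile over non-control spots (59305 of 62976; outlier spots, 78 to 415 per array, were left out) and log2-transformed, and spots of a probe were averaged. Of 55681 probes, 27375 were kept, having a signal well above background throughout 1 or more groups of 4 arrays. Probes were named by unversioned accession through RefSeq (GRCm38.p6): 27509 had 1 symbol, 28172 none and 0 several. The probe with the highest mean stood for a gene, which left 13168 genes. The 32 members had 44 probes, of which 43 were kept, and 11 members had several. A limma fit (version 3.58.1, R 4.3.3) covered all 12 arrays (9 residual degrees of freedom), and Benjamini-Hochberg adjustment ran over all genes. Exact permutation tests used scipy 1.17.1 in Python 3.11.15. The fit was tested on simulated data. Bounds ("at least") set the mean of the brighter group against, for each array of the dimmer one, either its lowest signal among probes well above background or the signal of the probe itself, whichever was higher.

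All members were named whatever their values; of each related list, the 4 largest called changes were named, apart from a gene that is not reported here. The members, lists and markers were chosen with earlier results of these data known. Replicate numbers paired the treated groups: deviations from the group means correlated at 0.229, 0.283, 0.162 and 0.15 for replicates 1 to 4, each best with its own number, and these arrays shared a row of the slide. Control did not pair with either. Alternatives covered scaling, background (normexp with an offset of 50, on spot medians because no spot means were used), filters, probe choice, the value table, the replicate block and left-out arrays. The spike-in scale was used only within the treated slide, since the spike-in mean was 11.65 in control and 14.25 in LPS_IFNg. The number of arrays limits the precision.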

Additional observations from a re-analysis of the deposited data

Results flagged for a closer look

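In each of 96 gene-by-group sets of 4 arrays, the array farthest from the rest was compared with the spread of its set, and 7 arrays stood apart; chance gives about 1 in 20. In the emodin arrays, replicate 1 had Acat2 at -2.32 (others -2.60 to -2.57), replicate 4 had Msmo1 at 4.33 (others 4.06 to 4.10), replicate 2 had Srebf1 at -1.99 (others -2.34 to -2.30) and replicate 3 had Fads1 at -0.77 (others -0.53 to -0.49). In LPS_IFNg, replicate 1 had Lss at 0.65 (others 0.85 to 0.86) and replicate 3 had Nsdhl at -0.07 (others 0.31 to 0.37). In control, replicate 2 had Srebf1 at -1.33 (others -1.13 to -1.09). The deviating arrays are not the same one from gene to gene.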

How the results depend on the processing

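Under 25 alternative settings, LPS_IFNg against control kept the direction of every member tested and lost no call; only Acaca gained one, in 6, of which the other-probe setting rests on a probe not above background in LPS_IFNg. For LPS_IFNg_emodin against LPS_IFNg, 22 members kept direction and call throughout. Against control 27 kept their call. A change of sign was counted as a reversal only where the main fit or the alternative made a call. The sign of Insig1 against control (0.17, not called) was therefore not followed. Reversals with emodin against LPS_IFNg were Acat2 (0.065), Fasn (0.015) and Fads2 (0.13) with normexp background correction, Mvd with spike-in scaling (-0.11), Fdft1 with the mean of its probes (0.051) and its other probe (0.55), and Srebf2 with its other probe (-0.31). Against control they were Fads2 with normexp (0.033), Srebf2 with the mean of its probes (-0.24) and its other probe (-0.73), and Insig2 with its other probe (-0.28); the other-probe setting was chosen after seeing the data. Members higher than control with emodin numbered 1, but 0 with quantile scaling or the deposited value table, 3 with normexp, 2 with the filter for probes well above background on all arrays, 3 without replicate 3 of both treated groups, and 1 to 3 with single arrays left out (2 without emodin replicate 2 or control replicate 2, 3 without emodin replicate 3). Spike-in scaling took the risers with emodin from 5 to 3. Leaving out single arrays kept members down at 29 to 29 and up at 1 to 1 for stimulation, down at 23 to 24 and up at 5 to 5 for emodin, and down at 28 to 28 against control. With the replicate number as a block on the 8 arrays compared, emodin gave 5 up and 23 down, Acat2 being the call lost (adjusted p = 0.0674), and no other member call changed. The causes were not tested, except that the strict filter drops Hsd17b7, Dhcr7, Fasn and Fads2. Signal over background limits Hsd17b7, Fasn and Fads2 with emodin, whose values depend most on the background correction. Dhcr7, well above background on 3 of 4 emodin arrays, and Elovl6 also had smaller falls with emodin under normexp. The normexp offset of 50 is a larger share of a dim signal on the dimmer emodin arrays. Smaller falls or reversals of dim probes with emodin therefore follow in part by construction and do not test the falls.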
